A study of Homo sapiens with 6 samples.

Results

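Genes of flotillin and caveola proteins were compared between MCF10A cells made to express flotillin 1 together with flotillin 2 and MCF10A cells made to express the fluorescent protein mCherry. The 10 genes were taken by symbol from a table of 52401 rows, of which 19733 carried an adjusted p: FLOT1, FLOT2, STOM, CAV1, CAV2, PTRF, SDPR, PRKCDBP, EHD2 and PACSIN2. All 10 had recovered reads and an adjusted p. PTRF, SDPR and PRKCDBP are the older symbols of cavin-1, cavin-2 and cavin-3. In total 17 rows carried one of these symbols, because FLOT1 was listed 8 times; the 7 further rows lie on alternative assemblies of its region and were listed at 0.

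Flotillins are membrane-anchored scaffold proteins that assemble into hetero-oligomers beneath cholesterol-rich microdomains and enter endosomes with them. They share the SPFH domain with stomatin. Caveolae are flask-shaped pits of the plasma membrane, built from caveolin oligomers in the membrane and a coat of cavins on its inner face, with EHD2 and PACSIN2 at the neck. In mammary epithelium caveolae are known mainly from the basal, myoepithelial layer, and flotillin microdomains form without caveolins.

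MCF10A is an immortalised, non-tumorigenic human mammary epithelial line with basal features. The flotillin line had received 2 retroviral vectors, for HA-tagged flotillin 1 and for mCherry-tagged flotillin 2, and was selected with puromycin and hygromycin (n = 3 libraries). The mCherry line had received 1 vector, for mCherry alone, and was selected with puromycin (n = 3 libraries). Both lines were grown in the same medium with horse serum, insulin, EGF, hydrocortisone and cholera toxin. Each group is a single stable line, so the flotillins, the number of vectors and hygromycin cannot be told apart. Nothing in the labels says that the libraries of a line came from separate cultures, and p-values then measure only the spread between these libraries.

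The authors' tables give group values only. Whole reads of each library were worked out from the digits of the group means and divided by the size factor, the scaling for depth; these are called normalized counts below. Libraries are numbered 1 to 3 within a line by falling size factor, and the numbers pair nothing across lines. The genes so solved took up 20635535 to 21646008 reads a library. Of the basal mammary markers, 5 of 8 tested fell in the flotillin line and 0 rose (the authors' deposited table, threshold 0.05 on the adjusted p). Over all 19733 tested genes, 11.6% rose and 12% fell there. Among the keratins of this list, KRT17 and KRT14 fell, with log2 fold changes of -3.90 and -1.87 (adjusted p = 1.96e-19 and 0.00704 in that table). KRT5 and KRT6A did not pass, with authors' means of 67351 and 26667 normalized counts in the flotillin line. Their means in the mCherry line were 48381 and 12744. TP63, a basal transcription factor gene, fell, with a log2 fold change of -5.63, in that table. KRT17 and TP63 also passed in limma, a linear model described below (adjusted p = 0.00156 and 0.000364). KRT14, LAMB3 and EGFR, the other basal markers that fell, did not pass there (adjusted p = 0.135, 0.0796 and 0.0660). KRT14 overlapped between the lines, with 430 normalized counts in flotillin library 2 against 287 in mCherry library 2. LAMB3 and EGFR have high mCherry means, so their library values there are less sure. Of the general epithelial markers, 3 of 4 tested fell, CDH1 at -7.31, ESRP1 at -7.53 and EPCAM at -5.63 on the log2 scale of the authors' deposited table. KRT8, the fourth, had the higher mean in the flotillin line but did not pass (3494 against 2043 normalized counts, 0.70, adjusted p = 0.259 in that table). The summed level of the 4 was 3461 to 3918 normalized counts in flotillin libraries, nearly all of it KRT8, and 23716 to 33571 in mCherry libraries. Of the fibroblast markers, 3 of 5 tested rose and 1 fell. Their summed level was 23574 to 58426 normalized counts in flotillin libraries and 1686 to 7725 in mCherry libraries, nearly all of it DCN, while THY1 was listed at 0 and COL3A1 had 1 read in 1 flotillin library. Their part in the results below was not tested. Of the markers of caveola-rich endothelial cells 0 of 2 tested passed, with a summed level of 417 to 798 in flotillin libraries and 271 to 939 in mCherry libraries, nearly all of it KDR, while the defining VWF and CDH5 had at most 4.05 normalized counts in a flotillin library and 4.94 in an mCherry library. Of the adipocyte and of the muscle markers 0 of 2 tested passed in each list. The adipocyte markers summed to 8.22 to 24.3 normalized counts in flotillin libraries and 20.7 to 45.5 in mCherry libraries, mostly PLIN1 and ADIPOQ. The muscle markers summed to 37.0 to 48.3 and 34.4 to 60.2, mostly MYH11. The fat-cell gene FABP4 and the muscle gene CAV3 had 0 reads in flotillin libraries and 1 read each in mCherry libraries. The immune marker CD3E was listed at 0, and 2 of 2 tested immune markers, CD14 and CSF1R, fell. In such bulk RNA, more cells with a transcript and more transcript per cell cannot be told apart.

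The introduced genes were about 11-fold higher in the flotillin line by read count. FLOT1, encoding flotillin 1 (ENSG00000137312, GRCh37 chromosome 6, 30695486 to 30710510), had 17243, 14137 and 18932 normalized counts in flotillin libraries 1 to 3, against 1898, 1359 and 1166 in mCherry libraries. The lowest flotillin library lay far above the highest mCherry library. The means were 16771 ± 2432 in the flotillin line and 1474 ± 380 in the mCherry line (SD, n = 3 each), a ratio of 11.4. FLOT2, encoding flotillin 2 (ENSG00000132589, chromosome 17, 27206353 to 27224715), had 38879, 41785 and 42493 normalized counts in flotillin libraries, against 4365, 2681 and 4136 in mCherry libraries. Its means were 41052 ± 1915 and 3727 ± 913, a ratio of 11.0. Again no libraries of the 2 lines overlapped. The flotillin library values of FLOT2 are 1 of 5 exact solutions, kept because its libraries lie under 3-fold apart, so their small spread was in part chosen. On the log2 scale the authors' deposited table puts FLOT1 at 3.38 (adjusted p = 1.03e-32) and FLOT2 at 3.35 (adjusted p = 5.14e-35).

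FLOT2 over FLOT1 was 2.45 in the flotillin line and 2.53 in the mCherry line by the means of normalized counts, nearly the same. The authors also gave FPKM, fragments per length of transcript and per depth of library, as 1 value per line with no spread. On that scale FLOT2 over FLOT1 was 1.52 in the flotillin line and 1.09 in the mCherry line. The FPKM values themselves were 782 for FLOT1 and 1189 for FLOT2 in the flotillin line, against 57.7 and 62.7 in the mCherry line. The ratio of lines was thus 13.6 for FLOT1 and 19.0 for FLOT2 in FPKM, above the 11.4 and 11.0 of the normalized counts. Reads of the introduced and the cell's own copies fall on the same genes in both tables, and how each table apportioned them was not tested.

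**Figure D1:**
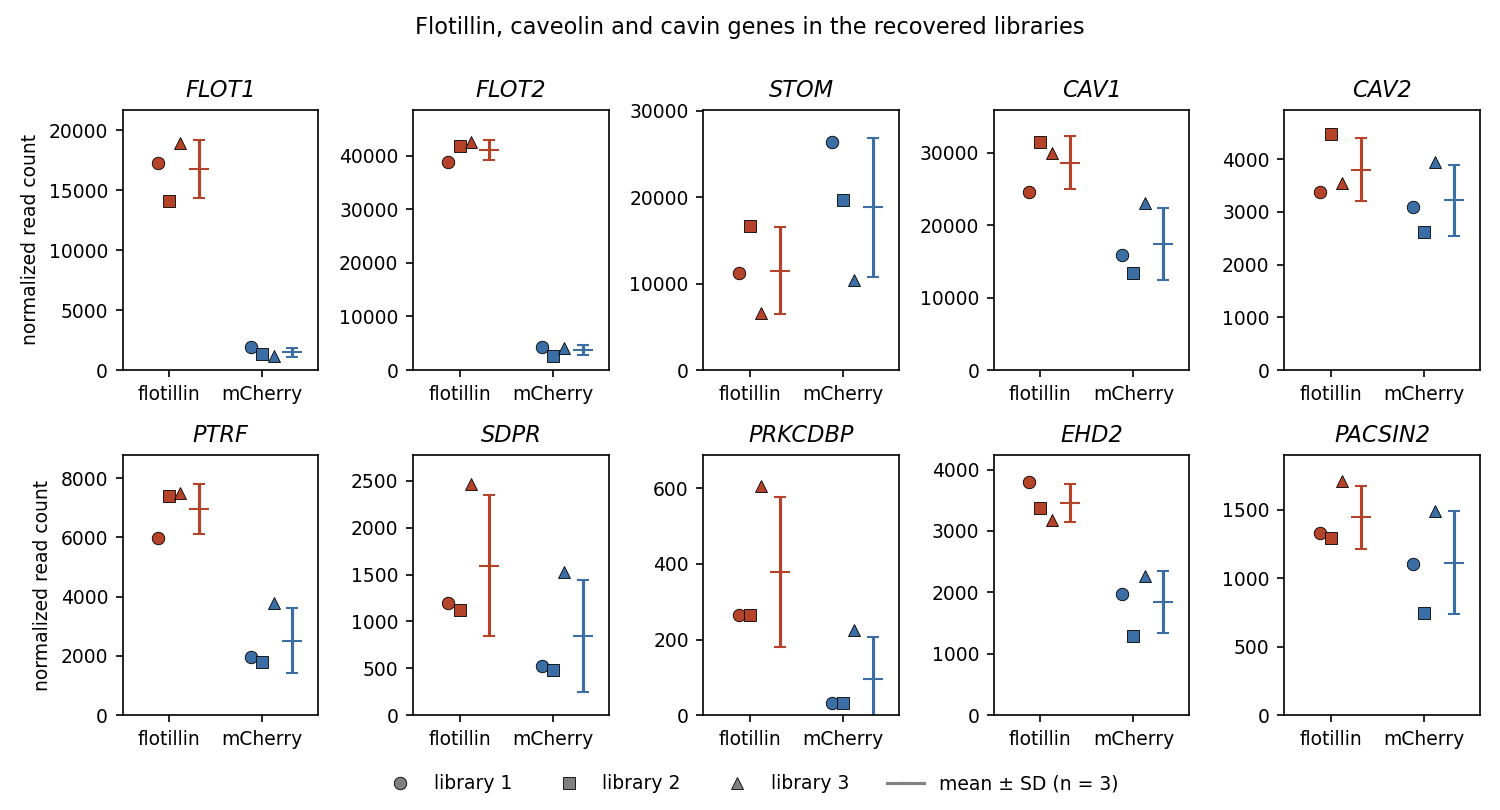
Normalized read counts (linear axis from 0, own scale per panel) of the 10 genes in the recovered libraries of the flotillin line (red, left) and the mCherry line (blue, right); circles, squares and triangles are libraries 1, 2 and 3, and bars are the mean ± SD over 3 libraries, drawn only above 0. FLOT1, FLOT2, CAV1 (in the exact solution used), PTRF, PRKCDBP and EHD2 do not overlap between lines. mCherry library 3 (triangle) is the highest mCherry library in all 7 caveolin, cavin and neck genes.

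Stomatin did not pass the test. STOM, an integral membrane protein of the SPFH family best known from the red cell membrane (ENSG00000148175, chromosome 9, 124101355 to 124132531), had 11240, 16619 and 6596 normalized counts in flotillin libraries, against 26443, 19635 and 10430 in mCherry libraries. It is the only one of the 10 genes with a mean below that of the mCherry line, 11485 ± 5016 in the flotillin line and 18836 ± 8036 in the mCherry line (SD, n = 3 each). Library 3 was the lowest of both lines, and the 2 lines overlapped. The log2 fold change was -0.66 in the authors' deposited table (adjusted p = 0.236) and -0.71 ± 0.43 (SE) in limma, a linear model fitted to log2(normalized count + 1) of 15959 genes (adjusted p = 0.250). Without library 3 of both lines, limma gave STOM -0.74 on the log2 scale (adjusted p = 0.0333).

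Of the caveolins, CAV1 missed the threshold, and CAV2 overlapped. In the exact solution used, CAV1 was higher in each flotillin library than in any mCherry library. CAV1 encodes caveolin 1, the main structural protein of caveolae outside muscle, and CAV2 encodes caveolin 2, which forms mixed oligomers with it. The promoter windows of CAV1, SDPR and EHD2 are shown because these 3 caveola genes, a caveolin, a cavin and a neck protein, have a RefSeq window and means at least 1.64-fold higher in the flotillin line. Each is 300 bases, 250 before and 50 after an annotated start, on GRCh38.p14, and the CAV1 window is the first of 3 listed. Capitals mark matches to the motifs searched, which in these windows are GC boxes (GGGCGG or CCGCCC) and, in SDPR, GGAATG, the letters bound by TEAD factors.
CAV1 window, chr7:116524759-116525058, plus strand: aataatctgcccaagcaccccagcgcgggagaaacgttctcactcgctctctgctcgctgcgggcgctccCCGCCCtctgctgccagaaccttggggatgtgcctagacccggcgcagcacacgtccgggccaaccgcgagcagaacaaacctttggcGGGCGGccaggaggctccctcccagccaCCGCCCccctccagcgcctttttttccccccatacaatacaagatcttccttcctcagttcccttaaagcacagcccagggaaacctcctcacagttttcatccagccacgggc
SDPR window, chr2:191847039-191847338, minus strand: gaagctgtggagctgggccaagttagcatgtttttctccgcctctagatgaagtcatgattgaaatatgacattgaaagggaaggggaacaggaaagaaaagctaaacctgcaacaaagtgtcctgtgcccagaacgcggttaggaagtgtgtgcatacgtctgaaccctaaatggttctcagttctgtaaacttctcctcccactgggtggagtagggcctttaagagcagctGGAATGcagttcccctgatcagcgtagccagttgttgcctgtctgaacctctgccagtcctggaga
EHD2 window, chr19:47713172-47713471, plus strand: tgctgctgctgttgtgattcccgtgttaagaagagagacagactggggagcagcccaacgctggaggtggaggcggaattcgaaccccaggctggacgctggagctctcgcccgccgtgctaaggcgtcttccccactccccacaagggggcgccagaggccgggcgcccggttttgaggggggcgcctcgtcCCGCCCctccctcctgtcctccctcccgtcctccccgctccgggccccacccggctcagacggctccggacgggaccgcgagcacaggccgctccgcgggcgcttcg

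The CAV1 window held 3 GC boxes, the EHD2 window 1 and the SDPR window 0. GC boxes were present in 45% of all 35116 human windows of that length. The TEAD letters GGAATG or CATTCC occurred in 1 place of the SDPR window and in none of the CAV1 and EHD2 windows, against 14% of all windows. TGANTCA, the AP-1 letters, CAGGTG or CACCTG, the E-box letters, and TATAAA or TTTATA, the TATA box letters, had no match in these 3 windows, and occurred in 7.71%, 20.6% and 11.5% of all windows. The share of G and C was 62.3% in the CAV1 window, 71.0% in EHD2 and 49.3% in SDPR, beside a median of 58.7% over all windows. A window was matched for 8 of the 10 genes, and the remaining genes are PTRF and PRKCDBP. Among windows not shown, the TEAD letters also occurred in that of STOM, which had the lower mean in the flotillin line. They occurred as well in several of the 6 windows of PACSIN2, which did not pass. The AP-1 letters matched in the FLOT2 window and the E-box letters in windows of PACSIN2.

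CAV1 (ENSG00000105974, GRCh37 chromosome 7, 116164839 to 116201233) had 24548, 31505 and 29915 normalized counts in flotillin libraries, against 15923, 13367 and 23003 in mCherry libraries. The groups were separated by a narrow gap, between flotillin library 1 and mCherry library 3. These flotillin values are 1 of 2 exact solutions, kept because the libraries lie under 3-fold apart. The other, with 1509, 78352 and 6108 normalized counts, overlaps the mCherry libraries. The gap, the flotillin SD and the limma values of CAV1 rest on that choice. The means were 28656 ± 3645 in the flotillin line and 17431 ± 4992 in the mCherry line (SD, n = 3 each), a ratio of 1.64. CAV1 stood at 0.69 on the log2 scale in the authors' deposited table (adjusted p = 0.0547) and at 0.75 ± 0.25 (SE) in limma (adjusted p = 0.0610). In the authors' deposited Tuxedo table, the source of the FPKM, CAV1 was at 0.63 and further from passing (q = 0.311). Without mCherry library 3, limma gave 0.97 (adjusted p = 0.0116), while leaving out any 1 of the other 5 libraries gave 0.57 to 0.85 (adjusted p = 0.115 to 0.178).

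CAV2 (ENSG00000105971) had 3373, 4476 and 3548 normalized counts in flotillin libraries and 3100, 2621 and 3949 in mCherry libraries. mCherry library 3 exceeded flotillin libraries 1 and 3. The means were 3799 ± 593 in the flotillin line and 3224 ± 672 in the mCherry line (SD, n = 3 each), with a log2 fold change of 0.23 in the authors' deposited table (adjusted p = 0.559). The authors' locus for CAV2 on chromosome 7, 115850547 to 116148595, also takes in TES and other genes.

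Of the cavins, PTRF and PRKCDBP passed the threshold in the authors' deposited table and SDPR did not. PTRF, encoding cavin-1, the coat protein without which caveolae do not form (ENSG00000177469, chromosome 17, 40554467 to 40575274), had 5978, 7393 and 7511 normalized counts in flotillin libraries, against 1969, 1790 and 3768 in mCherry libraries. The lowest flotillin library stood above the highest mCherry library. Means of 6961 ± 853 in the flotillin line and 2509 ± 1094 in the mCherry line (SD, n = 3 each) gave a ratio of 2.77. PTRF rose with a log2 fold change of 1.39 in the authors' deposited table (adjusted p = 0.000323), and of 1.55 ± 0.29 (SE) in limma (adjusted p = 0.0122). Without flotillin library 2 its adjusted p in limma was 0.0568.

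PRKCDBP, encoding cavin-3, which binds protein kinase C delta (ENSG00000170955, chromosome 11, 6340176 to 6341877), was a low gene with 264, 265 and 607 normalized counts in flotillin libraries, against 33.2, 31.6 and 224 in mCherry libraries. Library 3 was the highest of both lines, and mCherry library 3 came close to flotillin libraries 1 and 2 without reaching them. The means of 379 ± 197 and 96.3 ± 111 (SD, n = 3 each) differed 3.93-fold. PRKCDBP rose in the authors' deposited table with a log2 fold change of 1.61 (adjusted p = 0.0249). In limma the log2 fold change was 2.47 ± 0.78 (SE) with an adjusted p of 0.0582, and without mCherry library 3 it was 3.39 with an adjusted p of 0.00207. Leaving out any 1 of the other 5 libraries gave PRKCDBP adjusted p-values of 0.112 to 0.159.

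SDPR, encoding cavin-2, a phosphatidylserine-binding coat protein (ENSG00000168497), had 1201, 1119 and 2462 normalized counts in flotillin libraries and 523, 481 and 1532 in mCherry libraries. Library 3 was at least 2-fold above the others in both lines, and mCherry library 3 exceeded flotillin libraries 1 and 2. The means were 1594 ± 753 in the flotillin line and 845 ± 595 in the mCherry line (SD, n = 3 each). SDPR did not pass in the authors' deposited table of means, with a log2 fold change of 0.82 (adjusted p = 0.185), but did in the authors' deposited Tuxedo table (q = 0.0236), and in limma its log2 fold change was 1.03 ± 0.50 (SE, adjusted p = 0.167), or 1.57 without mCherry library 3 (adjusted p = 0.0139). Leaving out any 1 of the other 5 libraries gave SDPR 0.67 to 1.24 (adjusted p = 0.194 to 0.393). The authors' locus of SDPR on chromosome 2, 192699028 to 193060435, also takes in TMEFF2.

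At the caveola neck 1 of 2 genes passed. EHD2, an ATPase that holds caveolae at the cell surface (ENSG00000024422, chromosome 19, 48216601 to 48246390), had 3799, 3373 and 3186 normalized counts in flotillin libraries, against 1966, 1285 and 2269 in mCherry libraries. No libraries overlapped, and in EHD2, unlike the cavins, library 3 was the lowest flotillin library. EHD2 rose, with means of 3453 ± 314 in the flotillin line and 1840 ± 504 in the mCherry line (SD, n = 3 each), a log2 fold change of 0.87 in the authors' deposited table (adjusted p = 0.0109) and of 0.94 ± 0.23 (SE) in limma (adjusted p = 0.0273). Leaving out any 1 library other than mCherry library 3 gave EHD2 adjusted p-values of 0.0538 to 0.104 in limma. PACSIN2, an F-BAR protein that bends membrane at the neck (ENSG00000100266), had 1333, 1291 and 1711 normalized counts in flotillin libraries and 1101, 742 and 1493 in mCherry libraries. Its lines overlapped, with means of 1445 ± 231 and 1112 ± 375 (SD, n = 3 each) and a log2 fold change of 0.36 in the authors' deposited table (adjusted p = 0.421). The authors' locus for PACSIN2 on chromosome 22, 43192508 to 43411151, also takes in ARFGAP3.

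**Figure D2:**
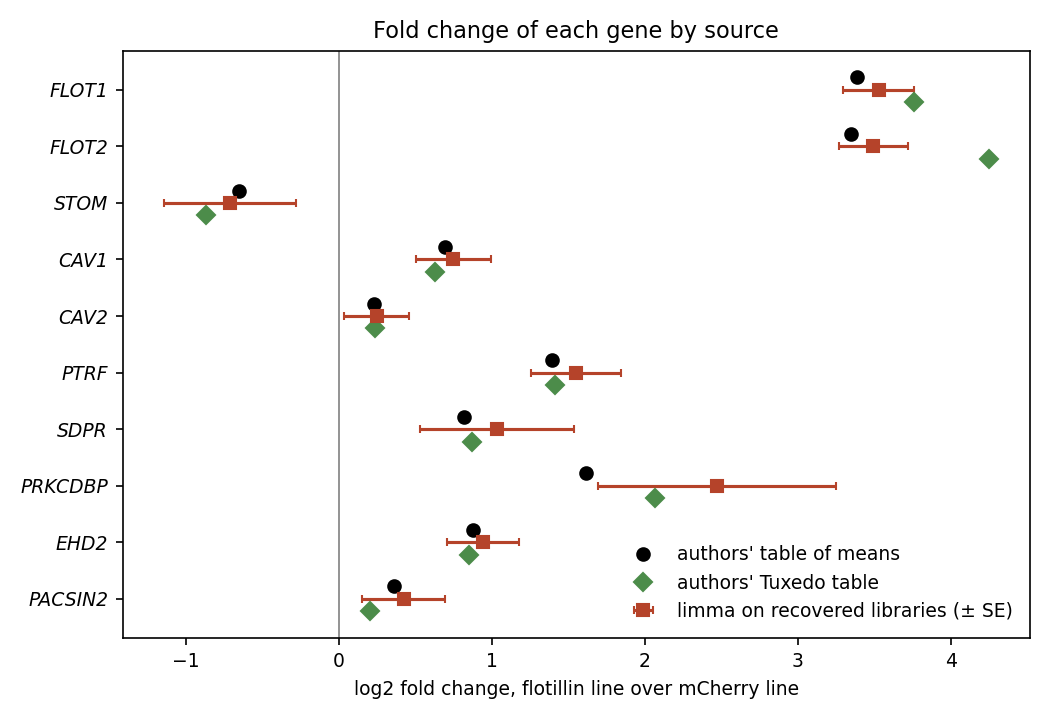
Log2 fold change of flotillin over mCherry cells (horizontal axis, 0 marked) for the 10 genes by source: the authors' table of means (black circles), limma on the recovered libraries (red squares, bars ± SE) and the authors' Tuxedo table (green diamonds). FLOT1 and FLOT2 lie at 3.35 or above in all sources, PTRF at 1.39 to 1.55, and STOM alone lies below 0.

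Together, 5 of the 10 genes rose and 0 fell in the authors' deposited table (FLOT1, FLOT2, PTRF, PRKCDBP and EHD2), where 11.6% of all 19733 tested genes rose and 12% fell. Leaving out the introduced FLOT1 and FLOT2, 3 of 8 rose. The median log2 fold change of the 8 was 0.75, beside -0.04 over all tested genes and 0.11 over the 11463 of them with a mean of at least 100 normalized counts. In limma 4 of the 10 rose (FLOT1, FLOT2, PTRF and EHD2) and 0 fell, against 12.4% and 11.2% of 15959 genes. Without mCherry library 3, limma called 7 of the 10 higher, where 22.1% of all 15959 genes were called higher, and without flotillin library 2 it called 2, FLOT1 and FLOT2, where 2.55% were. By the q-values of the authors' deposited Tuxedo table, 6 rose and 0 fell, the 5 genes above and SDPR, against 6.93% and 10% of 17022 tested genes. Libraries of the 2 lines did not overlap in 6 of the 10, all higher in the flotillin line, as in 24.2% of the 15959 genes (21.1% of these were lower without overlap). The 6 take in the introduced FLOT1 and FLOT2, and the rest are CAV1, PTRF, PRKCDBP and EHD2. For CAV1 the lack of overlap holds only in the exact solution used. Each limma and Tuxedo count of higher genes among the 10 likewise includes FLOT1 and FLOT2.

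On the per-length scale the order of the genes changed mostly through the flotillins. In the flotillin line it ran FLOT2, FLOT1, CAV1, STOM, CAV2, PTRF, EHD2, PACSIN2, SDPR and PRKCDBP, with 1189, 782, 646, 209, 108, 84.7, 42.0, 33.9, 19.4 and 18.4 FPKM in the authors' deposited Tuxedo table. In the mCherry line the order was CAV1, STOM, CAV2, FLOT2, FLOT1, PTRF, PACSIN2, EHD2, SDPR and PRKCDBP, with 418, 382, 91.4, 62.7, 57.7, 31.8, 29.4, 23.3, 10.7 and 4.40 FPKM. CAV1, the highest of the 10 in the mCherry line, stood below both flotillins in the flotillin line. These are single values per line, so neighbours can only be set against the spread of the normalized counts, whose coefficient of variation over the 10 genes reached 52.1% in the flotillin line and ran between 20.9% and 115% in the mCherry line, with a median of 31.2% there. In the mCherry line the neighbours CAV1 and STOM, FLOT2 and FLOT1, PTRF and PACSIN2, and PACSIN2 and EHD2 differ by less than their own spread. The same holds for SDPR and PRKCDBP in the flotillin line. The 3 cavins summed to 123 FPKM in the flotillin line and 46.9 FPKM in the mCherry line, and PTRF made up 69.1% and 67.9% of the sums. CAV1 stood at 7.63 times PTRF in FPKM in the flotillin line and at 13.1 times in the mCherry line.

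**Figure D3:**
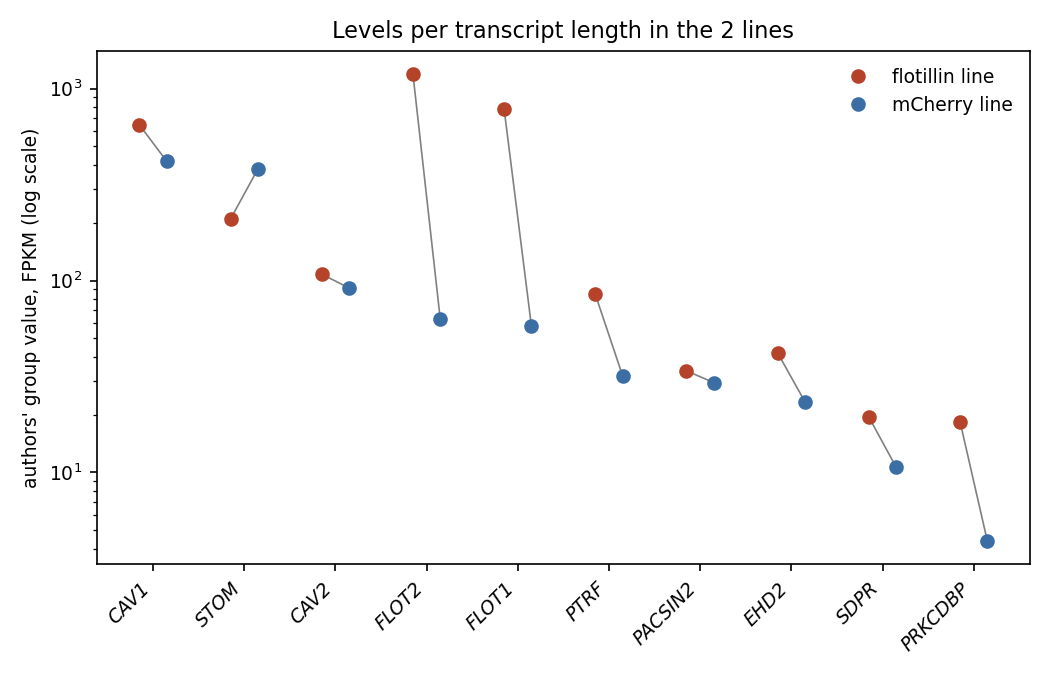
Authors' FPKM (log axis) of the 10 genes in the flotillin line (red, left point) and the mCherry line (blue, right point), ordered by the mCherry value, 1 pooled value per line with no error. CAV1, STOM and CAV2 lead in the mCherry line, and FLOT2 and FLOT1, at 1189 and 782 FPKM, lead in the flotillin line.

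Library 3 differed from libraries 1 and 2 of its own line in several of these genes. PRKCDBP in library 3 was 2.29-fold the mean of libraries 1 and 2 in the flotillin line and 6.92-fold in the mCherry line, SDPR 2.12-fold and 3.05-fold, and PTRF 1.12-fold and 2.01-fold. Of genes with a mean of at least 100 normalized counts, 8.33% in the flotillin line and 15.3% in the mCherry line had library 3 at least 2-fold away from that mean. mCherry library 3 was the highest mCherry library in 7 of 7 caveolin, cavin and neck genes, and in 48.7% of all genes of that mean. Flotillin library 3 was the highest in 4 of the 7, and in 46.0% of all genes. The shared number 3 comes from the order of the size factors alone and links no flotillin library to an mCherry library. What set library 3 apart was not tested.

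**Figure D4:**
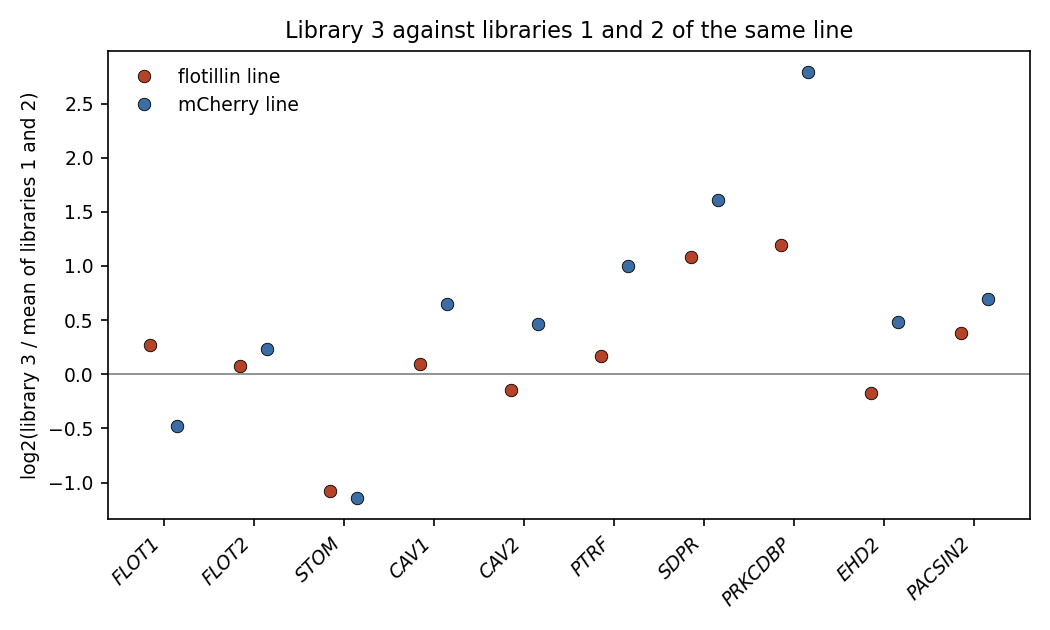
Log2 ratio of library 3 over the mean of libraries 1 and 2 of the same line (vertical axis, 0 marked) for the 10 genes in the flotillin line (red) and the mCherry line (blue). PRKCDBP and SDPR lie above 0 and STOM below 0 in both lines, and the mCherry point of each caveolin, cavin and neck gene lies above 0.

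Genes around these 10 were taken from 8 lists, in which 57 genes were tested, 14 rose and 10 fell in the authors' deposited table. Over all 19733 tested genes, 11.6% rose and 12% fell there, with a median log2 fold change of -0.04. The counts and medians of each list below stand beside these same values, and no list was tested as a set. The muscle caveolin CAV3 had 0 reads in flotillin libraries and 1 read in an mCherry library, and MURC, the muscle cavin, had 4 to 15 reads a flotillin library and 12 to 22 an mCherry library, too few to compare. Of the other EHD and PACSIN genes 2 of 4 tested rose and 0 fell, with a median log2 fold change of 0.52. EHD1, which drives recycling of receptors to the surface, averaged 824 ± 63.1 normalized counts in the flotillin line and 405 ± 136 in the mCherry line (SD, n = 3 each; log2 fold change 0.98 and adjusted p = 0.00887 in the authors' deposited table). EHD3, a low paralog, averaged 89.4 ± 23.6 and 21.0 ± 9.48 (log2 fold change 1.91, adjusted p = 6.39e-05 in the same table). Of the other genes of the SPFH family 0 of 6 tested rose and 1 fell, with a median of 0.23. That 1 was ERLIN2, a cholesterol-binding protein of the endoplasmic reticulum, at 1985 ± 254 normalized counts in the flotillin line and 2942 ± 172 in the mCherry line (log2 fold change -0.56, adjusted p = 0.0430 in the authors' deposited table).

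Flotillin partners and genes of endosomal recycling rose in 5 of 10 tested cases and fell in 0, with a median log2 fold change of 0.75. SORBS2, a sorbin-domain adaptor of the family that binds flotillin, had the largest of these, with 1628, 1151 and 761 normalized counts in flotillin libraries, against 252, 222 and 194 in mCherry libraries (log2 fold change 2.28, adjusted p = 9.13e-11 in the authors' deposited table). FYN, a Src-family kinase that phosphorylates flotillins, was low, with 120, 164 and 129 normalized counts in flotillin libraries, against 29.4, 17.2 and 57.3 in mCherry libraries (1.82, adjusted p = 0.000208 in that table). The early endosome GTPase gene RAB5A and the recycling endosome GTPase gene RAB11A rose less, at 0.91 (adjusted p = 0.00474) and 0.79 (adjusted p = 0.0410) on the log2 scale of the authors' deposited table, and SNX4 was the fifth.

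Caveola partners divided, with 1 of 10 tested genes higher and 3 lower, and a median log2 fold change of -0.15, or -0.06 over the 9 without FLNA. ABL1, a kinase linked to caveolae and actin fibres, averaged 3605 ± 266 normalized counts in the flotillin line and 2274 ± 431 in the mCherry line (SD, n = 3 each; 0.65, adjusted p = 0.0337 in the authors' deposited table). The receptor genes IGF1R and INSR, whose products signal from caveolae in fat cells, fell, with IGF1R at 1484, 1337 and 1717 normalized counts in flotillin libraries, against 6160, 6178 and 3600 in mCherry libraries (-1.74, adjusted p = 5.5e-08 in that table). INSR averaged 512 ± 64.8 in the flotillin line and 1115 ± 288 in the mCherry line (-1.08, adjusted p = 0.00133). DNM1, the neuronal dynamin, was at 25.3 ± 2.63 in the flotillin line and 66.6 ± 15.6 in the mCherry line (-1.30, adjusted p = 0.00370 in the authors' deposited table). FLNA, an actin-crosslinking partner of CAV1 whose deposited log2 fold change of -0.23 is among the 10, had 0, 14954 and 0 normalized counts in flotillin libraries and 15739, 9658 and 24808 in mCherry libraries, and is given no mean ± SD. In the authors' FPKM, FLNA stood at 238 in the flotillin line and 287 in the mCherry line.

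Clathrin and its adaptors, the machinery of the other main endocytic route, rose in 5 of 12 tested genes and fell in 0, with a median log2 fold change of 0.67. Examples are DAB2, a cargo adaptor, the light chain gene CLTA and the AP-2 subunit genes AP2M1 and AP2A1, which the authors' deposited table puts at log2 fold changes of 1.20, 1.09, 0.95 and 0.82 (adjusted p = 0.00408, 0.000736, 0.00732 and 0.00396). CLTA had 2381, 2717 and 2417 normalized counts in flotillin libraries, against 1069, 876 and 1496 in mCherry libraries, without overlap. Of the MAL family and other MARVEL-domain proteins, 1 of 9 tested rose and 3 fell, with a median of -0.45. MAL2, which carries transcytotic cargo in epithelia, had 916, 1610 and 295 normalized counts in flotillin libraries, against 6585, 4762 and 15939 in mCherry libraries (-2.81, adjusted p = 1.28e-06 in that table). PLLP, the raft protein plasmolipin, averaged 67.8 ± 23.8 in the flotillin line and 530 ± 265 in the mCherry line (-2.69, adjusted p = 2.19e-08). MALL fell in the authors' deposited table (-1.98, adjusted p = 0.00719) although 130 normalized counts in flotillin library 3 exceeded the 84.2 of mCherry library 2, and its adjusted p in limma was 0.167. CMTM3, a chemokine-like MARVEL protein gene, rose (1.53, adjusted p = 0.000383 in that table).

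Genes of GPI-anchored proteins, cargo of flotillin vesicles, fell in 3 of 5 tested cases and rose in 0, with a median log2 fold change of -0.80 with or without CD59, which had 0 reads in 1 flotillin library. CD55, a complement regulator, averaged 3036 ± 156 normalized counts in the flotillin line and 5369 ± 980 in the mCherry line (-0.80, adjusted p = 0.00514 in the authors' deposited table). PRNP, the prion protein gene, averaged 6582 ± 897 and 11609 ± 1401 (SD, n = 3 each; -0.80, adjusted p = 0.00425 in the same table). PLAUR, the urokinase receptor gene, had 204, 188 and 478 normalized counts in flotillin libraries and 649, 259 and 1920 in mCherry libraries, which overlap, with -1.43 and adjusted p = 0.0361 in the authors' deposited table and an adjusted p of 0.201 in limma.

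**Figure D5:**
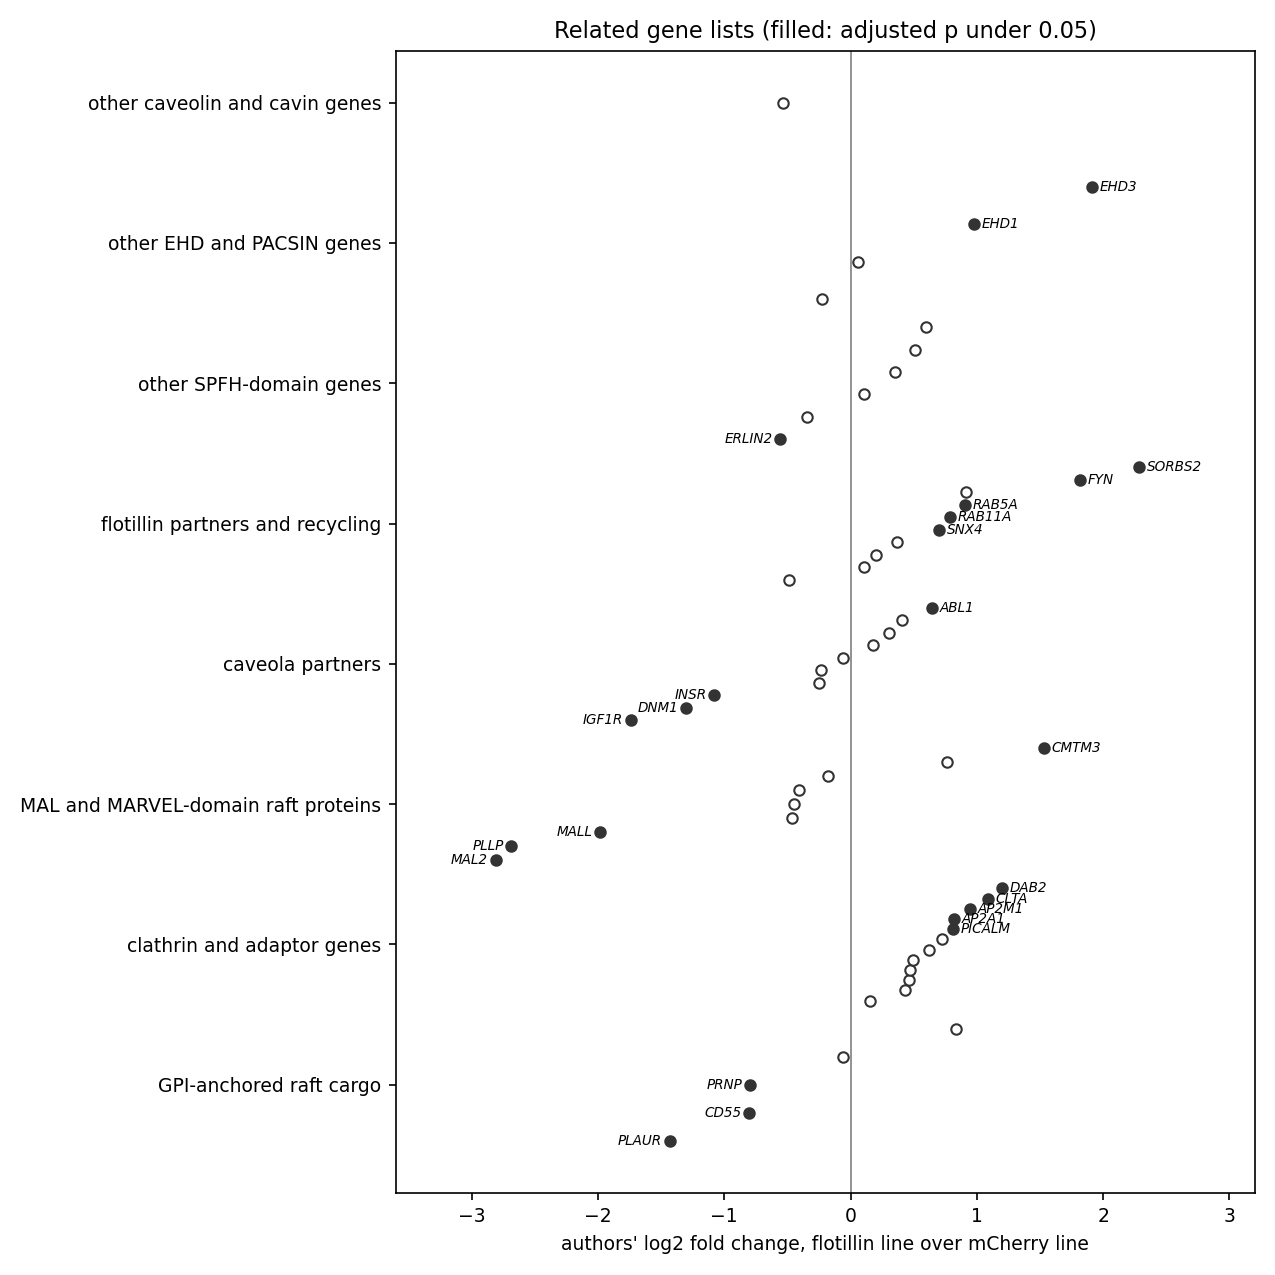
Authors' log2 fold change of flotillin over mCherry cells (horizontal axis, 0 marked) for the 57 tested genes of the 8 lists, 1 row per list and 1 point per gene, filled and named where the adjusted p is under 0.05. The named genes of the flotillin partner and clathrin rows lie above 0, those of the GPI-anchored row lie below 0, and caveola partners and MARVEL-domain proteins have named genes on both sides.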

How the data were processed

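RNA from 6 libraries of MCF10A cells, 3 per line, was grouped by the sample titles. Per the labels' protocols, the kit was a stranded poly(A) kit on an Illumina instrument. The submitters' processing notes name build GRCh37, DESeq2 1.18.1, HTSeq 0.9.1, HISAT2 2.1.0 and bcl2fastq. The first table deposited by the authors holds signal, the group means of size-factor-normalized counts, as their values show. Per the file headers, the log2 fold changes there were computed by the authors; they are slightly smaller than the log2 ratio of the 2 means (median 0.938 of it). Per the file headers, it also carries the authors' raw and adjusted p-values. The authors' second table, from the Tuxedo pipeline by its name, gives FPKM per group, per the file headers. Per the file headers, it further holds the test score and q-values computed by the authors.

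A mean of 3 libraries, deposited with 15 digits, is a sum of 3 whole counts with fixed weights. A search over whole numbers gave exactly 1 solution for every mean up to 20000 normalized counts. From there to 50000, only solutions with libraries under 3-fold apart were taken. In this way 99.88% of the flotillin and 99.86% of the mCherry means above 0 were solved, leaving 52 genes without recovered reads in 1 or both lines. Altered means, which should have none, were solvable in 0.1% (flotillin) and 0.3% (mCherry) of 1000 tries, but above 10000 in 28.33% and 25% of 60 tries. In the range from 20000 to 50000 a single solution was found for 42.42% and 31.58% of altered means, so values there are less sure. They include FLOT2 and CAV1 in the flotillin line. FLOT2 had 5 solutions and CAV1 had 2, of which 1 each had libraries under 3-fold apart (1.09-fold and 1.28-fold, the others 4.81-fold or more). Simulated reads, drawn around means of at most 20000 normalized counts, were returned exactly for 100% of the genes tried. The search with libraries under 3-fold apart was not tried on simulated reads, so this says nothing about the FLOT2 and CAV1 values.

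Genes rose or fell where the authors' adjusted p was under 0.05. No count test was run, as the columns hold group means. limma 3.58.1, in R 4.3.3 with robust and trend set and p adjusted by Benjamini-Hochberg, was run on log2(normalized count + 1) of 15959 genes with a mean of at least 10, and was tested on simulated data. Alternatives were the stricter threshold of 0.01, the Tuxedo table, pseudocounts of 0.5 and 8, a mean of at least 100, no filter, centred libraries, leaving out each library, leaving out library 3 of both lines and, chosen after seeing the data, a term for library 3. The sample titles number the replicates, but the recovered libraries could not be matched to those numbers and were not paired.

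The genes named are the 10 members, each list gene that passed (at most 4 per list, by size of log2 fold change) and the 3 genes most like PTRF; FLNA, CD59, SNX4 and the markers were named after their values were seen. The 10 members and all lists were chosen with earlier results of these data known. Promoter windows are from RefSeq (GRCh38.p14); values keep GRCh37. Protein sequences of the members, planned as a description, were not used here. Python 3.11.15, numpy 2.4.6, pandas 2.3.3, numba 0.67.0 and matplotlib 3.10.9 were used.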

Additional observations from a re-analysis of the deposited data

How the results depend on the processing

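No called gene among the 10 changed direction under any alternative. FLOT1 and FLOT2 passed in all 14 limma settings, PTRF in 13, EHD2 in 9, CAV1 in 4, PRKCDBP and SDPR in 3, STOM in 2 (lower), and CAV2 and PACSIN2 in 0. The number of the 10 genes called higher was 5, and 3 at an adjusted p under 0.01. Leaving out 1 library at a time in limma gave 2 (without flotillin library 2) to 7 higher (without mCherry library 3), against 4 with all, and 0 lower each time. Without library 3 of both lines, or with a term for it chosen after seeing the data, 7 were higher and 1 was lower, where 23.8% and 24.7% of all genes fitted were higher and 20.6% and 21.5% lower, against 12.4% and 11.2% with all libraries.

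Over all genes 4661 were called, 2298 higher and 2363 lower. At an adjusted p under 0.01 there were 2878 (1317 higher, 1561 lower), by Tuxedo q-values 2885 (1180 higher), and in limma with a mean of at least 100 there were 3078 (1326 lower). Without library 3 of both lines limma called 7079 (3791 higher), and with the term 7377 (3939 higher). Leaving out 1 library at a time gave 1020 (without flotillin library 1) to 6467 calls (without mCherry library 3), against 3771 with all 6, and each of the 6 moved that count by over 1.5 times. These fits gave 364 to 3532 higher and 656 to 2935 lower. In the 8 lists 14 genes were higher and 10 lower, and by Tuxedo q-values 10 were higher and 8 lower. Among those not passing by Tuxedo were ABL1, AP2M1, DNM1, ERLIN2 and SNX4 (q = 0.796, 0.744, 0.594, 0.486 and 0.350), each of which passed in limma. The authors' locus of AP2M1 also takes in 22 other genes. In the lists 6 were lower in limma with no filter, and 24 were higher without library 3 or with the term. One library left out gave 1 to 23 higher and 2 to 9 lower. The causes were not tested. Centring the libraries moved the median limma log2 fold change to 0.00 from 0.04. No paired analysis was possible because the recovered libraries carry no replicate numbers; the term for library 3 joins libraries by size factor order only.

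CAV2 and PACSIN2 missing the threshold does not show that they are alike in the 2 lines. The authors' FPKM carry no spread. High means carry less sure library values.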

Other observations

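The genes most like PTRF across the 6 libraries were GTF2F2, a general transcription factor subunit, COMMD7, and RHOA, a GTPase of actin fibres, each with a Pearson r of 0.999 on log2(normalized count + 1). They share the libraries and the difference between lines, and 1118 of 11415 genes compared had an r of at least 0.95, so the likeness is not particular to them. RHOA had 10764, 12368 and 12686 normalized counts in flotillin libraries, against 5574, 5272 and 7972 in mCherry libraries.

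Some genes had 0 reads in 1 or 2 libraries of a line and over 1000 normalized counts in another. There were 25 such genes in the flotillin line, of 5680 with a library over 1000, and 22 in the mCherry line, of 5833, with 7 in both lines and none of the 10 genes described above among them. CD59, a GPI-anchored complement inhibitor, had 22831, 29930 and 0 normalized counts in flotillin libraries and 21417, 22009 and 17996 in mCherry libraries. The log2 fold change in the authors' deposited table was -0.06 (adjusted p = 0.961). In the authors' FPKM, CD59 stood at 117 in the flotillin line and 99.4 in the mCherry line. The cause of the zeros was not tested. FLNA and CD59 are counted in the lists of the report, and without them the counts of higher and lower genes in these lists are the same.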
